A study of Mus musculus with 28 samples.

Results

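The 38 genes described here mark the immune cells of the liver: resident Kupffer cells, other macrophages, monocytes, neutrophils, B cells and leukocytes as a whole. They were found by symbol in the deposited counts of whole liver RNA. All 38 were among the 23393 gene symbols, Spi1 under its older symbol Sfpi1, and 37 passed the filter on low counts that left 12607 genes for testing. Cd79a, with 2 to 10 counts per library, was not tested. The livers came from 28 mice of the strain 129svj aged 11 to 13 months, 7 in each of 4 groups, with a library each. The groups were SIRT6 heterozygotes given WY-14643 (HZ WY), wild types given WY-14643 (WT WY), heterozygotes given vehicle (HZ vehicle) and wild types given vehicle (WT vehicle). WY-14643 (WY) is an agonist of the nuclear receptor PPARα. It was given by gavage at 50 mg/kg in 0.5% carboxymethylcellulose, which alone was the vehicle, and livers were taken 12 h later. Sirt6 encodes a nuclear deacylase that acts on histones, and the labels name no cell type to which its loss was confined. They do not give the sex of the animals, and the WY animals (numbers 2 to 25) and vehicle animals (29 to 39 and 71 to 78) have separate numbers and separate tables, so WY and anything else that set these animals apart cannot be told apart.

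Kupffer cells are macrophages that sit in the sinusoids of the liver, clear particles and dying cells from the blood through scavenger, complement and Fc receptors, and are largely maintained by their own division. Monocytes enter from the blood through the chemokine receptor encoded by Ccr2, and neutrophils carry the calcium-binding proteins encoded by S100a8 and S100a9. The transcription factor PU.1, encoded by Spi1, and the growth factor receptor encoded by Csf1r are needed for macrophages to form and survive. In whole liver RNA a higher level of such genes can mean more cells of a type or more RNA per cell, and these cannot be told apart here.

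Levels are CPM: each gene's count as a share of its library, whose size was adjusted by TMM, on a common scale for all 28. Changes are log2 fold changes ± SE from edgeR's quasi-likelihood test fitted on all 28 libraries, and a gene is said to pass where p, adjusted by Benjamini and Hochberg's method over all 12607 genes, is below 0.05. Libraries held 15795201 to 20020078 gene counts, and Sirt6 passed as lower in HZ livers under WY (log2 fold change -1.04 ± 0.16, adjusted p = 0.00721) and under vehicle (-0.97 ± 0.17, adjusted p = 0.00696). Of the 28 libraries, 5 stood apart on the second principal component of all genes: HZ WY animals 14, 15 and 21 and HZ vehicle animals 30 and 38. The same 5 libraries were lowest on that component when the members and the marker lists were left out of it. Further genes of immune cells can remain in it, so this does not make the choice independent of the members. The 5 libraries were picked from the data and are no group of the study. Among the 37 tested members, HZ WY animals 14, 15 and 21 were above every WT WY animal in 36, 32 and 34, against 0 to 14 for the other 4 HZ WY animals. Over all 12607 genes the same shares were 18.6, 21.6 and 25.3% for animals 14, 15 and 21 and 15.8 to 19.8% for the other 4. HZ vehicle animals 38 and 30 were above every WT vehicle animal in 34 and 33 members, against 26 for animal 35 and 0 to 2 for the other 4, while over all genes the 7 animals ran from 9.9 to 20.2%. The comparisons of genotype are therefore given with and without these 5 libraries. Leaving them out takes high animals from the HZ side only, with 4 left in HZ WY, which by itself lowers HZ over WT values. That fit therefore cannot show that the genotypes do not differ.

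**Figure D1:**
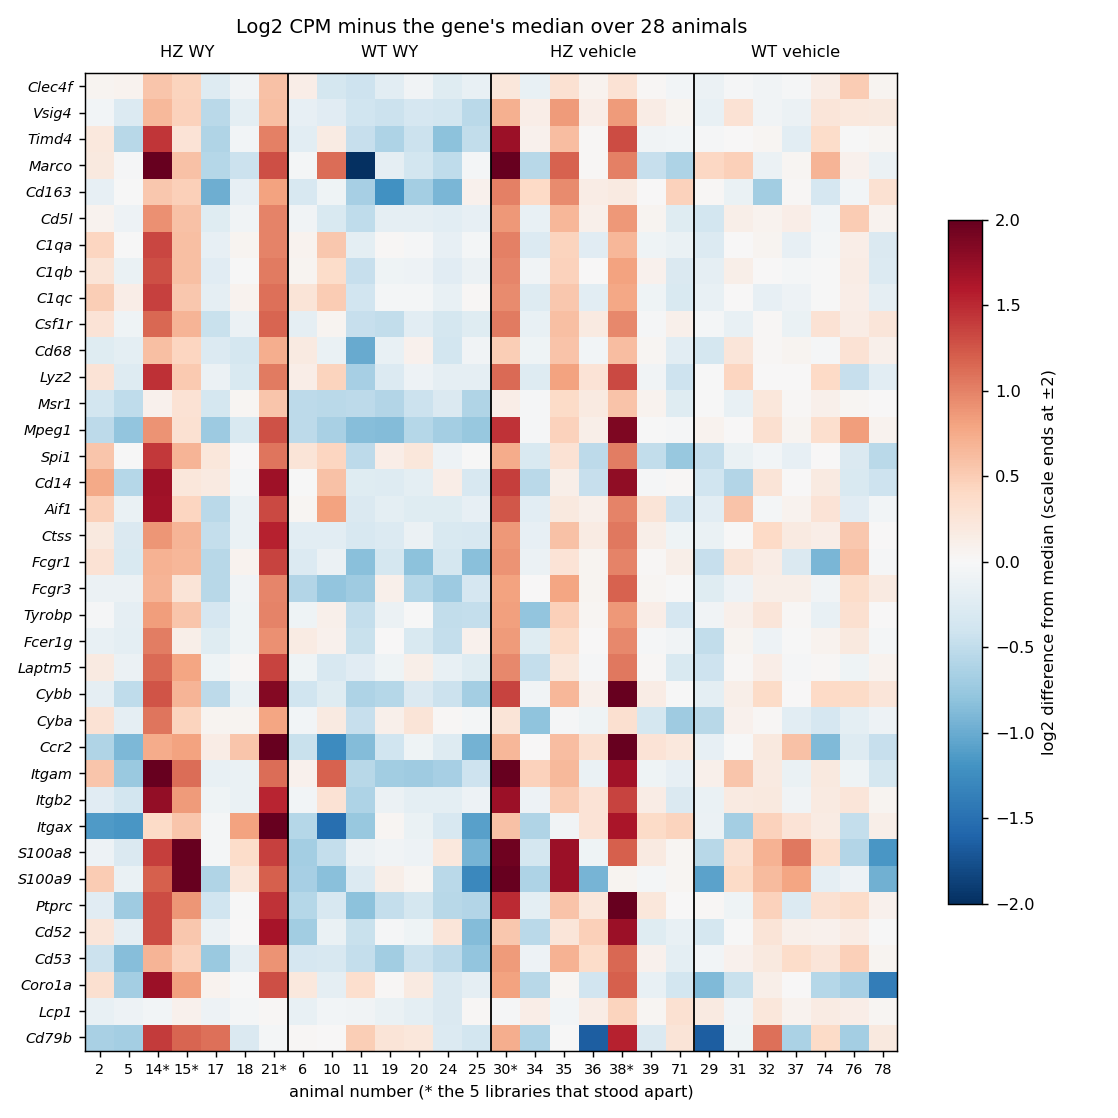
Log2 CPM of the 37 tested members (rows, by role) in the 28 animals (columns, by group), as the difference from each gene's median over all animals. Animals marked * are the 5 HZ libraries that stood apart, in which nearly all rows are above the median, and Lcp1 is the row with the least variation.

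Per length of merged exons, the most abundant members over all 28 livers were the lysozyme gene Lyz2 (median 46.7 CPM per kb), the Kupffer cell lectin gene Clec4f (45.3) and Cd5l (44.8), which encodes a scavenger protein secreted by macrophages. The C1q genes followed at 28.1 for C1qb, 25.7 for C1qa and 15.4 for C1qc. The ranges over animals of Lyz2 (29.3 to 129), Clec4f (34.1 to 68.2) and Cd5l (31.6 to 89.5) overlapped widely. At the other end stood Ccr2 with 0.286 CPM per kb, Cd79b with 0.293, Cd79a with 0.155 and the integrin gene Itgax, a marker of dendritic cells and some macrophages, with 0.105. Depth differed accordingly: Clec4f had 1335 to 3333 counts per library, whereas Ccr2 had 14 to 217 and S100a8 3 to 81. Lyz2 has a close copy in Lyz1, so its reads may be shared out uncertainly. Exons of Itgam overlap Gm49368 over 3450 bases, those of Csf1r overlap Hmgxb3 over 873, and those of Lcp1 overlap 2 RNA genes on the other strand over 530. The SD of log2 CPM within groups had a median of 0.477 over the 37 tested members. It had a median of 0.191 over the 11335 tested genes between the lowest and highest member in mean log2 CPM. Genes were not matched to members by level within that range, and the 5 libraries that stood apart are included. Marco, a scavenger receptor gene of resident macrophages, varied most among the members (0.928) and Lcp1 least (0.122).

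The first comparison asks whether these genes differ between heterozygous and wild type livers 12 h after WY. Msr1 and Fcgr1 passed as higher in HZ than in WT livers, and no member passed as lower. All 37 tested members had a positive fold change, with a median of 0.70 on the log2 scale. Over all 12607 genes the median was 0.01, and 6553 were positive. Of 14 other Kupffer cell genes 11 were positive and 3 negative, with a median of 0.31. Of 14 tested other monocyte and macrophage genes 11 were positive and 3 negative, with a median of 0.38. The 2 members that passed compare with 3.16% of all genes that passed in either direction and 1.42% that passed as higher. Without the 5 libraries that stood apart, 0 members passed in edgeR, 29 of 37 were positive and the median was 0.12. Of all genes 0.221% passed as higher. This fit takes high animals from the HZ side only, which by itself lowers these values. The other tools differed in the count, with 15 members called higher by DESeq2 (3.17% of all genes), 1 (Msr1) by limma with voom (2.99%), and 0 of 34 tested by edgeR on the WY libraries alone (2%). Leaving out 1 library gave 0 without WT WY animal 10, 11 or 19 or HZ WY animal 15 or 21, 1 without WT vehicle animal 29, 32, 37 or 78, HZ vehicle animal 35, WT WY animal 20, 24 or 25 or HZ WY animal 14, and 4, 8, 9 and 10 without HZ WY animal 18, HZ WY animal 17, HZ vehicle animal 38 and HZ WY animal 2. Of all genes 0.584 to 7.71% passed in these fits.

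Msr1 (GRCm38 chromosome 8, 39581685 to 39642673, minus strand) encodes the class A scavenger receptor, which takes up modified lipoproteins and bacteria. It ranged from 18.5 to 38.8 CPM in HZ WY livers with a median of 26.9, and from 17.3 to 21.5 CPM in WT WY livers with a median of 18.2. The groups overlapped, and 4 of 7 HZ WY animals were above every WT WY animal. The log2 fold change was 0.51 ± 0.13 (adjusted p = 0.0327), and without the 5 libraries it was 0.22 ± 0.10 (adjusted p = 0.312). Under vehicle the medians of Msr1 were 28.8 CPM in HZ and 26.6 CPM in WT livers. The log2 fold change there was 0.14 ± 0.13 (adjusted p = 0.598). Fcgr1 (chromosome 3, 96282909 to 96293969, minus strand) encodes the high-affinity receptor for IgG. It ranged from 1.2 to 4.73 CPM in HZ WY livers, with a median of 2.20, and from 0.947 to 1.64 CPM in WT WY livers, with a median of 1.37. In 5 of 7 HZ WY animals it was above every WT WY animal. The log2 fold change was 0.98 ± 0.27 (adjusted p = 0.0468), and without the 5 libraries it was 0.41 ± 0.24 (adjusted p = 0.43). Under vehicle the log2 fold change of Fcgr1 was 0.44 ± 0.26 (adjusted p = 0.398). Fcgr1 rested on 15 to 82 counts per library in HZ WY and WT WY livers. Leaving out 1 library at a time, Msr1 passed in 23 of 28 fits (log2 fold changes of 0.39 to 0.58), failing in the 5 fits in which no member passed. Fcgr1 passed in 13 (0.74 to 1.1 over the 28 fits): it failed in the fits with 0 or 1 member, and without WT WY animal 6.

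**Figure D2:**
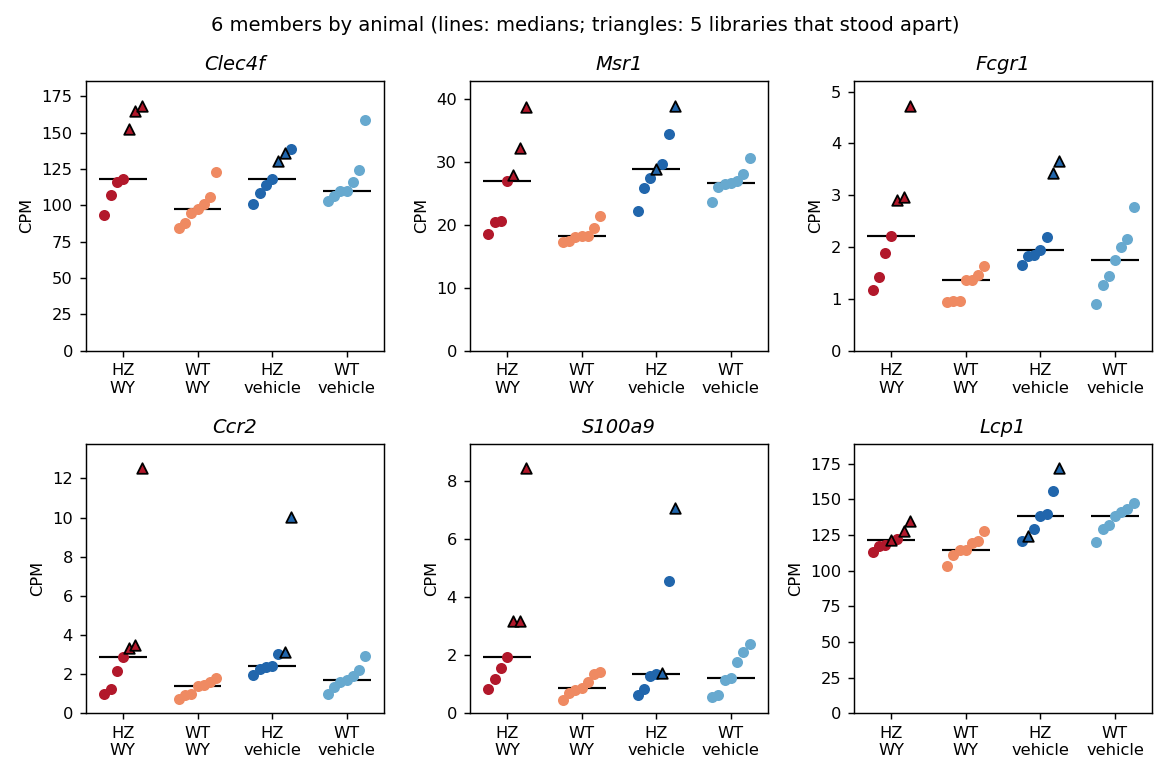
CPM of 6 members in each of 28 livers, with HZ WY, WT WY, HZ vehicle and WT vehicle from left to right, 7 animals each; lines are medians and triangles the 5 HZ libraries that stood apart. The 3 triangles of HZ WY are the highest points of that group for Clec4f, Fcgr1, Ccr2 and S100a9, while the groups of Lcp1 under the same treatment nearly coincide.

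Among the resident macrophage genes, Clec4f and Cd5l had the smallest p. Clec4f ranged from 93.4 to 169 CPM in HZ WY livers, with a median of 118, and from 84.3 to 123 CPM in WT WY livers, with a median of 97.1. Only animals 14, 15 and 21 were above every WT WY animal, and the log2 fold change was 0.41 ± 0.12 (adjusted p = 0.0553). Cd5l ranged from 77.0 to 182 CPM in HZ WY livers, with a median of 96.3, and from 64.2 to 86.5 CPM in WT WY livers, with a median of 80.6. Here 5 of 7 HZ WY animals were above every WT WY animal, with a log2 fold change of 0.62 ± 0.20 (adjusted p = 0.0697). The other 4 resident genes had log2 fold changes of 0.50 for Vsig4, which encodes a complement receptor, 0.65 for Cd163, the haemoglobin scavenger receptor, 0.81 for Timd4, a receptor for dying cells, and 0.89 for Marco. None of the 6 passed, and their median was 0.63.

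The genes of C1q, the recognition molecule of the classical complement pathway, lay close together. C1qb ranged from 26.1 to 75.2 CPM in HZ WY livers, with a median of 36.7, and from 22.3 to 39.6 CPM in WT WY livers, with a median of 28.6. C1qc ranged from 26.2 to 76.5 CPM in HZ WY livers, with a median of 41.6, and from 22.8 to 42.4 CPM in WT WY livers, with a median of 28.9. In both genes 3 of 7 HZ WY animals were above every WT WY animal. The log2 fold changes were 0.58 ± 0.22 for C1qb (adjusted p = 0.11), 0.55 ± 0.22 for C1qc (adjusted p = 0.133) and 0.51 for C1qa, and none passed. Of the 9 other macrophage and myeloid genes Msr1 alone passed. Csf1r came next, with 32.6 to 99.6 CPM in HZ WY livers (median 54.1) and 31.8 to 46.4 CPM in WT WY livers (median 37.6). Its log2 fold change was 0.75 ± 0.22 (adjusted p = 0.0575), and 4 of 7 HZ WY animals were above every WT WY animal. The remaining 7 had values of 0.33 for Cd68, a lysosomal membrane protein, 0.58 for Spi1, 0.60 for Lyz2, 0.65 for Aif1, 0.76 for the lysosomal protease gene Ctss, 0.82 for Cd14, a co-receptor for lipopolysaccharide, and 0.93 for Mpeg1, which encodes a pore-forming protein of phagocytes.

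Of the Fc receptors and their signalling adaptors, Fcgr3, a low-affinity IgG receptor gene, ranged from 3.53 to 10.4 CPM in HZ WY livers, with a median of 4.99, and from 2.96 to 5.61 CPM in WT WY livers, with a median of 3.46. Its log2 fold change was 0.74 ± 0.22 (adjusted p = 0.0592), with 3 of 7 HZ WY animals above every WT WY animal. The adaptor genes Tyrobp and Fcer1g had values of 0.55 and 0.40 and did not pass. In the phagocyte oxidase and lysosome group, Laptm5, a lysosomal membrane gene of blood cells, ranged from 12.8 to 35.9 CPM in HZ WY livers (median 15.8) and from 11.1 to 15.2 CPM in WT WY livers (median 12.7). Its log2 fold change was 0.72 ± 0.24 (adjusted p = 0.0747), and 4 of 7 HZ WY animals were above every WT WY animal. Cyba and Cybb encode the 2 membrane subunits of the oxidase that makes superoxide. Cyba had a value of 0.41 ± 0.18 (adjusted p = 0.162) and Cybb one of 1.07 ± 0.58 (adjusted p = 0.259).

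The 4 largest fold changes among the members belonged to the neutrophil genes S100a8 and S100a9 and to Ccr2 and Itgax, and none of them passed. Ccr2 ranged from 0.981 to 12.5 CPM in HZ WY livers, with a median of 2.90, and from 0.741 to 1.81 CPM in WT WY livers, with a median of 1.40. Animal 21 held the highest value and the next was 3.47 CPM, and 5 of 7 HZ WY animals were above every WT WY animal. The log2 fold change was 1.56 ± 0.47 (adjusted p = 0.0628), against 0.52 ± 0.28 (adjusted p = 0.389) without the 5 libraries. Itgax ranged from 0.164 to 2.42 CPM in HZ WY livers (median 0.693) and from 0.106 to 0.522 CPM in WT WY livers (median 0.304), with a log2 fold change of 1.35 ± 0.48 (adjusted p = 0.0891). The integrin genes Itgam and Itgb2, whose products pair on monocytes and neutrophils, had values of 1.04 and 0.85 and did not pass.

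S100a8 ranged from 0.436 to 4.61 CPM in HZ WY livers, with a median of 0.752, and from 0.239 to 0.658 CPM in WT WY livers, with a median of 0.505. S100a9 ranged from 0.833 to 8.42 CPM in HZ WY livers, with a median of 1.92, and from 0.478 to 1.44 CPM in WT WY livers, with a median of 0.877. Animal 15 was highest for both, and the next values were 1.63 CPM for S100a8 and 3.17 CPM for S100a9. The log2 fold changes were 1.67 ± 0.53 (adjusted p = 0.0687) and 1.59 ± 0.54 (adjusted p = 0.0812), against 0.33 ± 0.47 and 0.52 ± 0.47 without the 5 libraries. Of 12 other neutrophil genes 4 were tested, all with positive values, and Cxcr2, the chemokine receptor that draws neutrophils from the blood, passed (1.60 ± 0.44, adjusted p = 0.0446) at 0.196 to 1.08 CPM in HZ WY livers and 0.0607 to 0.299 CPM in WT WY livers. Cxcr2 rests on few counts and was also highest in animal 15 among HZ WY livers, and its value without the 5 libraries is not given here.

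Ptprc encodes CD45, the surface phosphatase of all leukocytes. It ranged from 5.72 to 25.9 CPM in HZ WY livers, with a median of 9.40, and from 5.30 to 7.51 CPM in WT WY livers, with a median of 6.41. The log2 fold change was 1.08 ± 0.35 (adjusted p = 0.0708), against 0.21 ± 0.15 without the 5 libraries, and 5 of 7 HZ WY animals were above every WT WY animal. Cd52, a small surface glycoprotein gene, ranged from 1.69 to 6.29 CPM in HZ WY livers (median 2.32) and from 1.02 to 2.30 CPM in WT WY livers (median 1.75), with a log2 fold change of 0.94 ± 0.32 (adjusted p = 0.0817). The tetraspanin gene Cd53 and the actin-binding gene Coro1a had values of 0.63 and 0.69. Lcp1, which encodes the actin-bundling protein L-plastin, varied little: it stood at 113 to 134 CPM in HZ WY livers and 104 to 128 CPM in WT WY livers, a log2 fold change of 0.07 ± 0.07 (adjusted p = 0.52). The B cell receptor chain gene Cd79b ranged from 0.218 to 1.29 CPM in HZ WY livers (median 0.404) and from 0.299 to 0.631 CPM in WT WY livers (median 0.425), with a log2 fold change of 0.56 ± 0.49 (adjusted p = 0.505). Its partner Cd79a, not tested, stood at 0.107 to 0.455 CPM in HZ WY livers (median 0.288) and 0.126 to 0.653 CPM in WT WY livers (median 0.182).

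**Figure D3:**
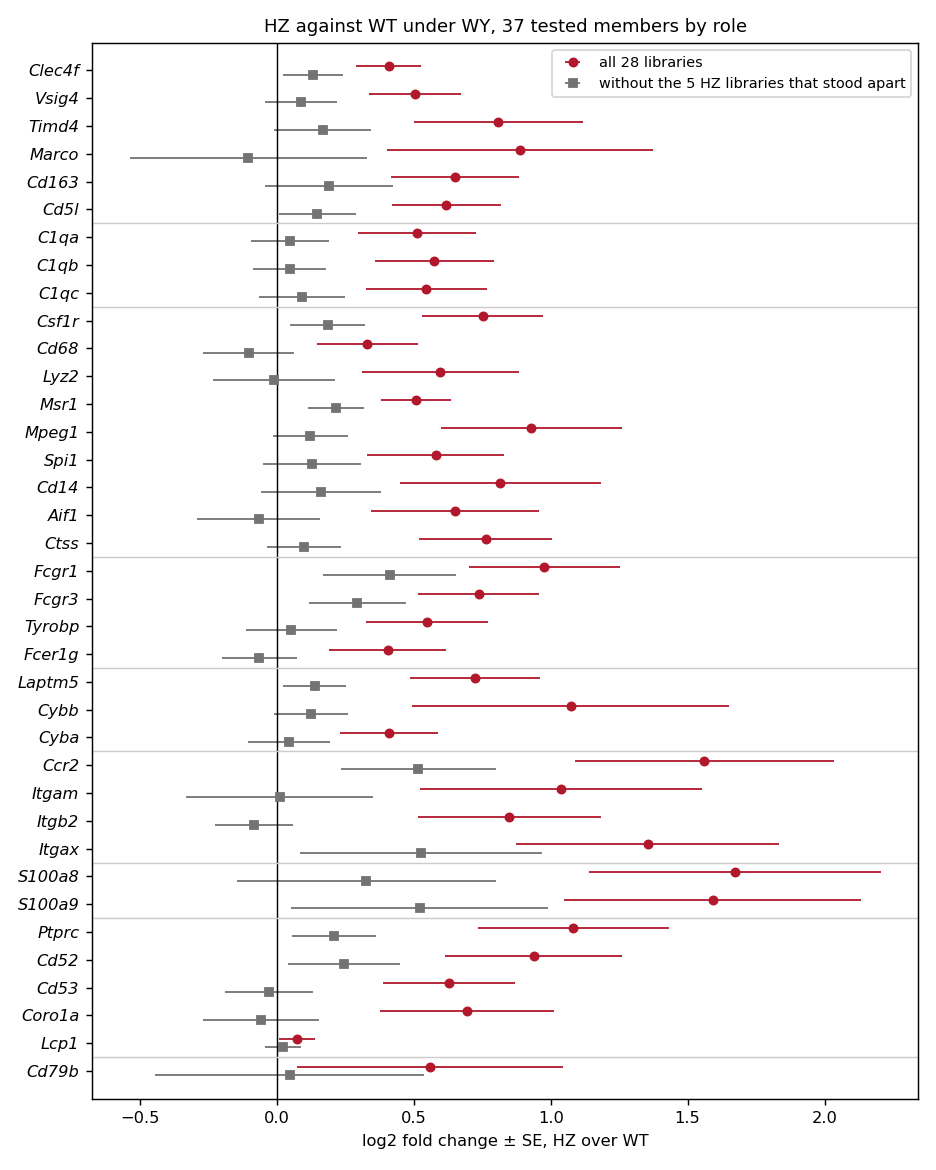
Log2 fold change ± SE of HZ over WT livers under WY for the 37 tested members, by role from resident macrophage genes at the top to the B cell gene Cd79b at the bottom, from all 28 libraries (circles) and with those 5 HZ libraries left out (squares). With all libraries every value is above 0, and without the 5 the median is 0.12 and 8 values are below 0. The fit without the 5 takes high animals from the HZ side only.

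Lists of markers of other cell types were summed in each library. The 16 T and NK cell genes summed to 3.58 to 14.9 CPM in HZ WY livers and 2.71 to 4.83 CPM in WT WY livers, and animal 21 was highest. The 7 cholangiocyte markers summed to 22.1 to 97.5 CPM in HZ WY livers, again highest in animal 21, and to 26.5 to 38.1 CPM in WT WY livers. The 15 leukocyte recruiting ligands and growth factors summed to 19.9 to 156 CPM in HZ WY livers, highest in animal 14. They summed to 17.7 to 32.1 CPM in WT WY livers. In animal 14 the ligand gene Cxcl13 alone stood at 121 CPM, against a median of 4.9 CPM in HZ WY livers. The 10 sinusoidal endothelial markers summed to 363 to 449 CPM in HZ WY livers and 370 to 423 CPM in WT WY livers. The 9 measured hepatocyte markers summed to 52400 to 90200 CPM in HZ WY livers and 72700 to 84700 CPM in WT WY livers. Cd3e, which defines T cells, was detected in both groups at up to 0.865 CPM in HZ WY livers and 0.326 CPM in WT WY livers. No T and NK cell, cholangiocyte or ligand gene passed. Apart from Cxcr2, only the endothelial cadherin gene Cdh5 (0.40 ± 0.10, adjusted p = 0.0265) passed among these lists in HZ against WT livers under WY. The part of any of these cells in the members' values was not tested.

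Under vehicle, 0 of 37 members passed between HZ and WT livers in edgeR, against 2.07% of all genes. At an unadjusted p below 0.05 there were 9, against 17.9% of all genes. DESeq2 called 1 (Cybb) of the 30 members to which it gave an adjusted p, against 4.8% of all such genes, and limma with voom 0, against 5.56%. All 37 values were again positive, with a median of 0.39, and without the 5 libraries 25 were positive with a median of 0.04. Of 14 other Kupffer cell genes 10 were positive and 4 negative, with a median of 0.04. Of 14 tested other monocyte and macrophage genes 9 were positive and 5 negative, with a median of 0.13. Cybb had the largest value of the members, 1.68 ± 0.56 (adjusted p = 0.116). It ranged from 15.9 to 292 CPM in HZ vehicle livers, with a median of 18.5, and from 14.5 to 22.1 CPM in WT vehicle livers, with a median of 19.6. The 292 CPM of animal 38 stood far above the next, 42.7 CPM, and without the 5 libraries the value was -0.01. Clec4f had 101 to 139 CPM in HZ vehicle livers (median 118) and 103 to 158 CPM in WT vehicle livers (median 110) and a log2 fold change of 0.03 ± 0.12 (adjusted p = 0.917). Ccr2 ranged from 1.94 to 10.0 CPM in HZ vehicle livers (median 2.43) and from 1.00 to 2.95 CPM in WT vehicle livers (median 1.72), with a value of 0.99 ± 0.45 (adjusted p = 0.25). It was 0.39 ± 0.25 without the 5 libraries. Cd163 had 0.59 ± 0.23 (adjusted p = 0.168), or 0.53 ± 0.21 (adjusted p = 0.366) without them, and 4 of 7 HZ vehicle animals were above every WT vehicle animal.

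The next comparison is WY against vehicle within each genotype, which asks how the agonist affects the immune cell genes. In WT livers 6 members fell and none rose: Msr1, Mpeg1, Cd53, Fcgr3, Vsig4 and Lcp1. WY moved much of the liver transcriptome, with 54.1% of all genes passing in WT in either direction and 26.7% as lower, so 6 of 37 is below the share of all genes in this fit. Of the 37 values 30 were negative, with a median of -0.30, against -0.02 over all genes.

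Msr1 ranged from 17.3 to 21.5 CPM in WT WY livers and from 23.6 to 30.6 CPM in WT vehicle livers, and the groups did not overlap. Its log2 fold change was -0.53 ± 0.13 (adjusted p = 0.000951). Mpeg1 (chromosome 19, 12460779 to 12465283, plus strand) ranged from 31.4 to 39.9 CPM in WT WY livers, with a median of 35.9, and from 57.8 to 102 CPM in WT vehicle livers, with a median of 60.5. Again no animals overlapped, and the log2 fold change of -0.96 ± 0.33 (adjusted p = 0.0162) was the largest fall. Cd53 (chromosome 3, 106759921 to 106790149, minus strand) ranged from 4.36 to 6.09 CPM in WT WY livers (median 5.49) and from 7.34 to 10.7 CPM in WT vehicle livers (median 8.78). Its log2 fold change was -0.72 ± 0.24 (adjusted p = 0.0135), without overlap.

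Vsig4 (chromosome X, 96247203 to 96293438, minus strand) ranged from 17.8 to 23.1 CPM in WT WY livers, with a median of 20.0, and from 23.4 to 31.7 CPM in WT vehicle livers, with a median of 29.7. These groups did not overlap either, at a log2 fold change of -0.45 ± 0.17 (adjusted p = 0.0266). Fcgr3 (chromosome 1, 171051174 to 171064935, minus strand) ranged from 2.96 to 5.61 CPM in WT WY livers (median 3.46) and from 4.41 to 6.75 CPM in WT vehicle livers (median 5.67). In 6 of 7 WT WY animals it was below every WT vehicle animal, and the log2 fold change was -0.57 ± 0.22 (adjusted p = 0.0333). Lcp1 (chromosome 14, 75131101 to 75230842, plus strand) ranged from 104 to 128 CPM in WT WY livers (median 115) and from 120 to 148 CPM in WT vehicle livers (median 139), with a log2 fold change of -0.23 ± 0.07 (adjusted p = 0.00436). The SD of Lcp1 within groups was 0.122, against 0.451 to 0.617 for Cd53, Cd52, Coro1a and Ptprc. Which cells its RNA came from was not tested. Fcgr3 no longer passed without WT vehicle animal 76 or 78 or WT WY animal 6, 10, 11, 20 or 24 (-0.69 to -0.51 over the 28 fits that leave out 1 library), and Vsig4 without WT vehicle animal 31 or WT WY animal 25 (-0.48 to -0.41).

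All 7 WT WY animals were below all 7 WT vehicle animals in 6 members, against 12.1% of all genes tested. These were Msr1, Mpeg1, Vsig4, Cd53, Ptprc and Cybb. Ptprc and Cybb did not pass, at -0.67 ± 0.35 (adjusted p = 0.108) and -0.66 ± 0.58 (adjusted p = 0.348). In the fit without the 5 HZ libraries, which holds the same WT libraries, they passed at -0.67 ± 0.13 (adjusted p = 0.000102) and -0.66 ± 0.12 (adjusted p = 3.06e-05), and 14 members passed in WT, 13 as lower and 1, Coro1a, as higher (0.51 ± 0.19, adjusted p = 0.0222). Of all genes 56.5% passed in that fit and 27.9% as lower. With the WT libraries alone 15 of 34 tested members passed, 14 of them lower, against 57.6% of all genes and 29.2% as lower. In both of these fits the members' share called in either direction was below that of all genes, and their share called lower was above it. With only vehicle animals 29 to 39, 2 members passed as lower, Lcp1 and Msr1, against 47.2% of all genes and 23.5% as lower. The WT vehicle group then holds animals 29, 31, 32 and 37 alone. Whether the calls were lost through the smaller group was not tested. Clec4f had -0.25 ± 0.12 (adjusted p = 0.0735), with 5 of 7 WT WY animals below every WT vehicle animal. C1qa, C1qb and C1qc had 0.12, -0.04 and 0.12, and none passed.

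**Figure D4:**
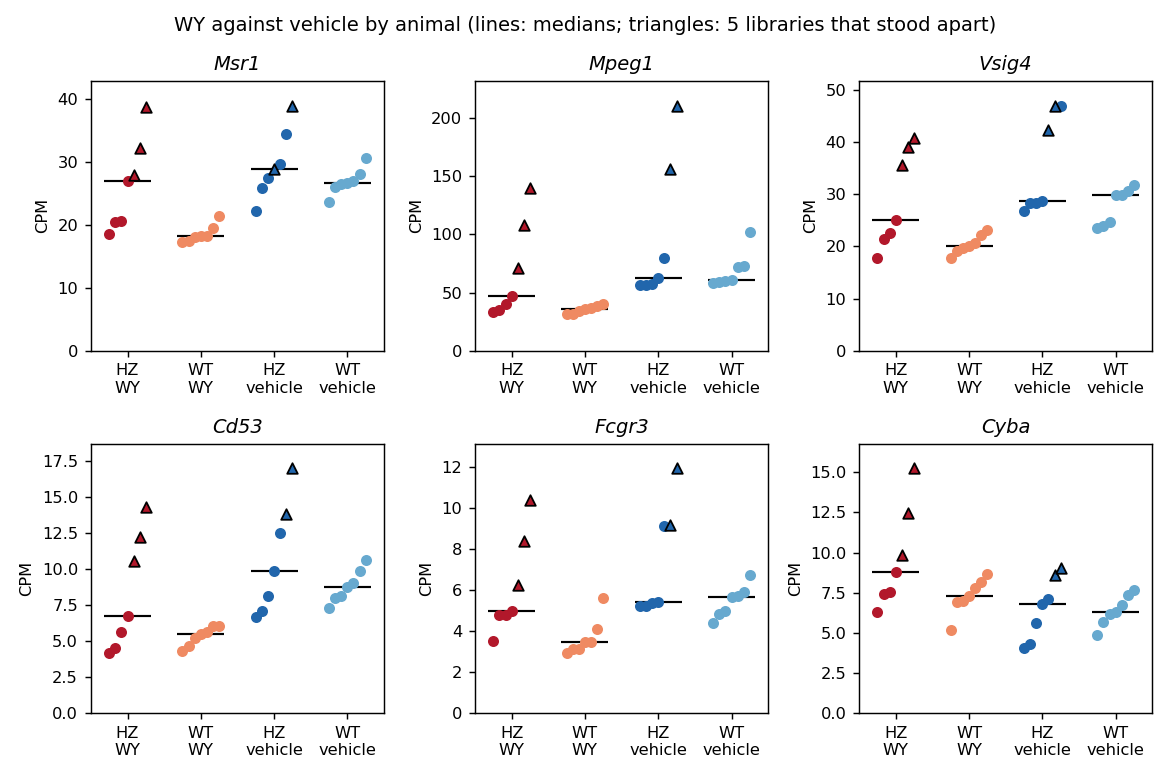
CPM in each liver of the 5 members other than Lcp1 that fell under WY in WT livers, and of Cyba, which rose in HZ livers, with HZ WY, WT WY, HZ vehicle and WT vehicle from left to right; lines are medians and triangles the 5 HZ libraries that stood apart. For Msr1, Mpeg1, Vsig4 and Cd53 all WT WY points are below all WT vehicle points, and the HZ points spread widely.

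In HZ livers 2 members passed, against 55.7% of all genes. Cyba (chromosome 8, 122424776 to 122432930, minus strand) rose: it ranged from 6.32 to 15.2 CPM in HZ WY livers, with a median of 8.82, and from 4.05 to 9.06 CPM in HZ vehicle livers, with a median of 6.78. Animals 14, 15 and 21 were above every HZ vehicle animal, and the log2 fold change was 0.57 ± 0.18 (adjusted p = 0.0088), or 0.44 ± 0.16 (adjusted p = 0.0289) without the 5 libraries. In WT livers Cyba ranged from 5.18 to 8.64 CPM under WY (median 7.29) and from 4.87 to 7.66 CPM under vehicle (median 6.31), with a value of 0.19 ± 0.18 (adjusted p = 0.404). Lcp1 fell to 113 to 134 CPM in HZ WY livers (median 121), against 121 to 172 CPM in HZ vehicle livers (median 139), a log2 fold change of -0.20 ± 0.07 (adjusted p = 0.0119). Both calls on Lcp1 and the call on Cyba were lost when a trend with gene length was removed. Among genes with merged exons of up to 2785 bases the median log2 fold change of WY was 0.14 in HZ and 0.17 in WT livers, and among those of 6821 bases or more it was -0.14 in HZ and -0.20 in WT livers. Cyba has 1039 bases of merged exons and Lcp1 9504. Leaving out HZ WY animal 21 gave 6 members in HZ livers (56.4% of all genes), and leaving out HZ WY animal 14 or HZ vehicle animal 38 gave 4 (53.9 and 53.7%).

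Leaving out the 5 libraries takes animals 14, 15 and 21 from HZ WY and animals 30 and 38 from HZ vehicle. It keeps HZ vehicle animal 35, which was above every WT vehicle animal in 26 members. More high animals thus leave the WY side, which by itself lowers these values, so this fit cannot show a fall under WY. Without the 5 libraries 10 members passed in HZ livers, 8 of them lower, against 50.6% of all genes and 23.7% as lower. They were Cd53 (-0.74 ± 0.17), Cd163 (-0.72 ± 0.25), Mpeg1 (-0.69 ± 0.15), Vsig4 (-0.55 ± 0.14), Cybb (-0.52 ± 0.14), Ptprc (-0.50 ± 0.16), Msr1 (-0.37 ± 0.11) and Lcp1 (-0.21 ± 0.07), while Spi1 (0.55 ± 0.20) and Cyba were higher. Of these 8, all but Cd163 also passed as lower in WT livers in the same fit. Msr1, Mpeg1, Vsig4, Cd53 and Lcp1 are also among the 6 that passed in WT with all libraries. How many of all genes fell in both genotypes is not given here. With all 28 libraries the same genes had wide ranges in HZ livers. Mpeg1 ranged from 33.4 to 140 CPM in HZ WY livers (median 46.7) and from 56.5 to 211 CPM in HZ vehicle livers (median 62.6), a value of -0.52 ± 0.32 (adjusted p = 0.177). Vsig4 ranged from 17.8 to 40.8 CPM in HZ WY livers (median 25.0) and from 26.8 to 47.0 CPM in HZ vehicle livers (median 28.7), a value of -0.30 ± 0.16 (adjusted p = 0.128).

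The test of the difference between the 2 genotypes' responses passed for no member in edgeR, against 0% of all genes. At an unadjusted p below 0.05 there was 1 member, Clec4f, and 1182 of the 12607 genes (9.38%). Limma with voom called 0 members, against 0.00793% of all genes. DESeq2 gave 24 of the 37 an adjusted p and called 0, against 0.0355% of all genes with one. Clec4f had an interaction of 0.37 ± 0.17 on the log2 scale (adjusted p = 0.509), and Msr1 one of 0.37 ± 0.18 (adjusted p = 0.534). The largest was 0.85 ± 0.75 for S100a8 (adjusted p = 0.737). The members that passed in WT and not in HZ livers are therefore not shown to respond differently in the 2 genotypes.

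**Figure D5:**
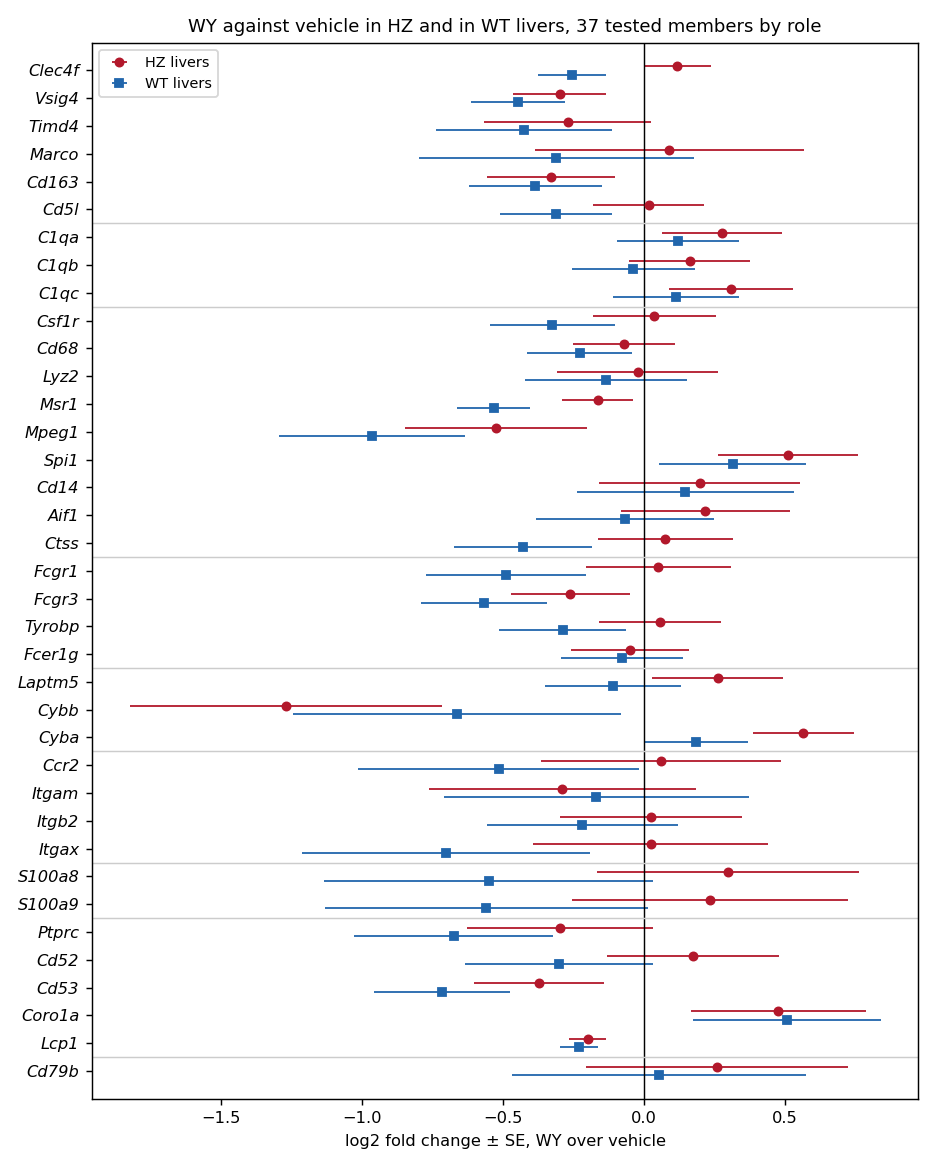
Log2 fold change ± SE of WY over vehicle for the 37 tested members in HZ livers (circles) and WT livers (squares), by role from resident macrophage genes at the top to Cd79b at the bottom. In WT livers 30 of 37 values are below 0 and in HZ livers 14 of 37. Without the 5 libraries it is 29 of 37 in HZ livers, in a fit that leaves out more high animals under WY than under vehicle. The difference between the genotypes passed for none.

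Lists of other genes of these cells, made up by cell type, gave further values for WY. Of 14 other Kupffer cell genes, 2 rose and 4 fell in HZ livers, and 1 rose and 7 fell in WT livers. Over all genes tested 29.3% rose and 26.4% fell in HZ livers, and 27.4% rose and 26.7% fell in WT livers. These shares apply to each list that follows as well. Mertk, a receptor for dying cells, fell by 0.33 ± 0.09 in HZ (adjusted p = 0.00278) and by 0.48 ± 0.09 in WT livers (adjusted p = 7.22e-05). Nr1h3, which encodes the sterol-sensing receptor LXRα, rose by 0.33 ± 0.06 in HZ (adjusted p = 1.69e-05) and 0.28 ± 0.06 in WT livers (adjusted p = 0.000146). Hepatocytes also express Nr1h3. Of 14 tested other monocyte and macrophage genes, 1 rose and 2 fell in HZ livers and 2 fell in WT livers. Of the 8 tested ligands and growth factors that recruit leukocytes, 1 fell in each genotype, the neutrophil chemokine gene Cxcl1. It ranged from 0.60 to 5.44 CPM in HZ WY and 3.29 to 100 CPM in HZ vehicle livers, with a log2 fold change of -3.20 ± 0.80 (adjusted p = 0.00147). It ranged from 0.423 to 1.81 CPM in WT WY and 2.00 to 42.7 CPM in WT vehicle livers, with -2.96 ± 0.89 (adjusted p = 0.00697). Of 4 tested dendritic cell genes, Clec9a fell in both genotypes (-0.60 ± 0.21 in HZ and -0.82 ± 0.22 in WT livers), and Zbtb46, a transcription factor gene, rose in HZ livers (0.42 ± 0.17, adjusted p = 0.0316; 0.05 ± 0.17 in WT livers, adjusted p = 0.842). Beside these, 7 of 9 hepatocyte markers fell in each genotype, and their summed level was 52400 to 90200 CPM in HZ WY, 72700 to 84700 CPM in WT WY, 88500 to 123000 CPM in HZ vehicle and 95200 to 122000 CPM in WT vehicle livers. The part of hepatocyte RNA in the members' values was not tested.

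To set markers of other leukocytes against the Kupffer cell gene Clec4f within each library, its log2 CPM was subtracted from that of Ccr2, S100a8, Cd79a and Ptprc, in 4 comparisons. Kupffer cells also express Ptprc, so its ratio does not set other cells against them. None of these 16 differences passed a two-sided exact permutation test over 3432 splits after adjustment. Under WY the Ccr2 to Clec4f log2 ratio was -5.49 ± 0.97 in HZ and -6.20 ± 0.36 in WT livers (SD, n = 7 each; exact p = 0.0822, adjusted p = 0.263). Under vehicle it was -5.25 ± 0.67 in HZ and -5.98 ± 0.58 in WT livers (exact p = 0.0425, adjusted p = 0.263). The smallest p belonged to Ptprc to Clec4f for WY against vehicle in WT livers, at -3.90 ± 0.22 in WT WY and -3.49 ± 0.26 in WT vehicle livers (exact p = 0.00699, adjusted p = 0.112). For S100a8 to Clec4f under WY the ratio was -6.80 ± 0.90 in HZ and -7.52 ± 0.50 in WT livers (exact p = 0.081, adjusted p = 0.263).

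The next question was whether these genes vary together from animal to animal, for 10 pairs of Clec4f, Ccr2, S100a8, Cd79a and Ptprc. The plan was to use all 28 animals, with each group's mean removed. The values given first are instead from the 23 animals other than the 5 that stood apart, a choice made after seeing the data. Ccr2 and S100a8 were correlated, with Pearson's r of 0.54 (permutation p = 0.00365, adjusted p = 0.0365) and Spearman's rho of 0.58 (permutation p = 0.00292, adjusted p = 0.0292), and r was 0.43 without the 2 animals farthest from the median of Ccr2. Clec4f passed with neither: r was -0.03 with Ccr2 (permutation p = 0.896) and -0.01 with S100a8 (permutation p = 0.955). Over all 28 animals both pairs passed by Spearman's rho, at 0.46 with Ccr2 and 0.47 with S100a8 (permutation p adjusted 0.0398 for each), so these 2 relations rest on the 5 libraries, which were picked from the data. In the 23 animals the other 7 pairs ran from -0.05 to 0.39 and did not pass after adjustment. Over all 28 animals 5 of the 10 pairs passed by Pearson's r and 7 by Spearman's rho. Among them was Clec4f with Ptprc (r of 0.70, permutation p adjusted 0.00225). Both Ccr2 and S100a8 rest on few counts.

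PU.1 binds DNA at sites with a GAGGAA core, and the members' promoters were searched for these letters. RefSeq windows on GRCm38.p6, from 250 bases before to 50 bases after the start site, were found for 29 of the 38 members. The letters GAGGAA, on either strand, were present in the windows of 17 of these 29 members (58.6%), against 8446 of 27025 genes in the table (31.3%). This is a description and not evidence of binding. The windows are shown for Fcgr1, which passed between HZ and WT livers under WY, and for Vsig4, Mpeg1 and Cd53, which passed and did not overlap between WT WY and WT vehicle livers. Capitals mark GAGGAA or its reverse complement TTCCTC.
Fcgr1, chr3:96293920-96294219, minus strand: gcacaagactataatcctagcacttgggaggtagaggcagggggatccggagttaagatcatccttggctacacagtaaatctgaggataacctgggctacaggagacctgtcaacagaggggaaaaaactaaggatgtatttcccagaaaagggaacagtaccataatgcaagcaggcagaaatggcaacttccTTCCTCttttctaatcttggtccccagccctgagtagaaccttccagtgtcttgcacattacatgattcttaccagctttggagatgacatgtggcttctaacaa
Vsig4, chrX:96293389-96293688, minus strand: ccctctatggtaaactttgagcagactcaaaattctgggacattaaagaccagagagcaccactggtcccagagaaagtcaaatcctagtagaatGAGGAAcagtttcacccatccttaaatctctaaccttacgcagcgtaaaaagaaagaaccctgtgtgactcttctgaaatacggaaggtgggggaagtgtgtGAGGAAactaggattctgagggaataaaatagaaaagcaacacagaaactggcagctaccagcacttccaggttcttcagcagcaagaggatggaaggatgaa
Mpeg1, chr19:12460520-12460819, plus strand: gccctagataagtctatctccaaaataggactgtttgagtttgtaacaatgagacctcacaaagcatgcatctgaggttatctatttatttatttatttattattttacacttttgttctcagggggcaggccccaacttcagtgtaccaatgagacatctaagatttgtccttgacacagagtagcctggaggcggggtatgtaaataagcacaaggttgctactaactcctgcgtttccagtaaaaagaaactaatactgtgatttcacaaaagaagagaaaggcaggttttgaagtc
Cd53, chr3:106790100-106790399, minus strand: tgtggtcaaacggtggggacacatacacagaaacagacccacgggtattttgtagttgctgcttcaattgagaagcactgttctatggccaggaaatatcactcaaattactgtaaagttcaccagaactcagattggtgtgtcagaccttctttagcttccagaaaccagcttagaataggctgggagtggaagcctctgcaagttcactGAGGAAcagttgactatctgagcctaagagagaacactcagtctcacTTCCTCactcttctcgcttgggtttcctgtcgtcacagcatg
The window of Fcgr1 held 1 match, at position -55 relative to the start site, and that of Vsig4 held 2, at -155 and -53. Cd53 had 2 matches, 1 on each strand, at -39 and 9. Mpeg1 had no match in its window, nor did Clec4f, Ccr2 and Lcp1.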

How the data were processed

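Per the submitters' processing notes, STAR 2.5.0a, HTSeq 0.6.1p1 and DESeq2 1.18.1 were used with mm10; which annotation and strand setting went into the counting is not stated, and reads of overlapping genes are therefore uncertain. The authors deposited raw read counts per gene symbol, in separate tables for the 14 vehicle and the 14 WY libraries. Their 28 columns were matched to samples by title, the HTSeq summary rows (among them reads in no gene, 6.35 to 9.08% per library) were left out, and rows whose names had become dates were dropped (25 under vehicle, 27 under WY).

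Genes were kept by filterByExpr (12607 of 23393) and tested with edgeR 4.0.16 in R 4.3.3: TMM, robust quasi-likelihood fit, a mean per group, 24 residual degrees of freedom and 5 contrasts. Log2 CPM used a prior count of 2. Replicates differed by more than counting error (chi-square per degree of freedom 10.3 to 107 between pairs). Alternatives used DESeq2 1.42.0 and limma 3.58.1. The fits were tested on simulated counts. Correlations used 100000 permutations of animals within groups.

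The 38 members and all lists were chosen with earlier results of these data known, so no test over the list was made. Per-animal values are given for members that passed and for the 2 members of each role with the smallest p in HZ against WT livers under WY; Cybb and a few others were added after their values were seen. The promoters printed were chosen from called members, after their matches were known. Msr1, which also passed, had no window in the RefSeq set and could not be searched. Positions are from GENCODE M21 on GRCm38. Proteins were not used here.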

Additional observations from a re-analysis of the deposited data

Results flagged for a closer look

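In 9 of 148 sets of 7 values (37 members in 4 groups), the highest or lowest animal stood apart from the rest of its group by Dixon's criterion on the log2 scale; chance flags about 1 in 20. In WT WY livers animal 10 was highest for C1qa (38.7 CPM, next 28), Aif1 (4.29 CPM, next 2.49) and Itgam (3.65 CPM, next 1.64). In HZ vehicle livers animal 38 was highest for Cybb (292 CPM, next 42.7) and Ccr2 (10.0 CPM, next 3.11). In WT vehicle livers animal 76 was highest for Mpeg1 (102 CPM, next 72.7). Animal 29 was lowest there for Fcer1g (5.33 CPM, next 7.07), Laptm5 (10.5 CPM, next 13.2) and Cd52 (1.49 CPM, next 1.93).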

How the results depend on the processing

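No paired analysis was possible because no animal number occurs in more than 1 group. Few counts limit Ccr2, Itgax, S100a8, Cxcr2 and the B cell genes, and the spread between HZ animals limits the rest. The alternatives that left out the 5 HZ libraries or removed a length trend were chosen after seeing the data. Where a value below changed, the cause was not tested.

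Members passing in HZ against WT livers under WY numbered 2, against 15 with DESeq2, 1 with limma voom, 1 without the filter, 0 with only the groups compared and 0 without the 5 libraries, and 0 to 10 leaving out 1 library. Without the filter 153 of all 19225 genes passed in either direction, and the other shares are given above. Under vehicle 0 became 1 with DESeq2. For WY in HZ livers 2 became 4 with limma voom, 1 with only the groups compared, 10 without the 5 and 1 (Vsig4) with the length trend removed, and 2 to 6 leaving out 1 library. Of all genes, 7026 of 12607 passed with limma voom and 6565 of 12371 with only the groups compared. With the length trend removed 6487 of 11897 passed, and leaving out 1 library 52.6 to 56.4% did. For WY in WT livers 6 became 15 with only the groups compared, 2 with vehicle animals 29 to 39 and 14 without the 5, and 5 to 6 leaving out 1 library. Leaving out 1 library, 51.3 to 54.7% of all genes passed. The interaction, not fitted with only the groups compared, stayed at 0 members under the others, with 24 of 37 given an adjusted p by DESeq2. Members above 0 for WY in HZ livers numbered 23, against 15 with limma voom or with the length trend removed, 17 with vehicle animals 29 to 39, 8 without the 5 (median -0.23) and 12 to 28 leaving out 1 library. The fit without the 5 leaves out more high HZ animals under WY than under vehicle. In HZ against WT livers it takes high animals from the HZ side only.

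Of the log2 ratios to Clec4f, leaving out 1 library brought past the threshold Ccr2 in HZ against WT livers under vehicle (0.86 without WT vehicle animal 37, range 0.48 to 0.86) and Ptprc for WY in WT livers (-0.46 without WT vehicle animal 37 and -0.47 without WT WY animal 10, range -0.47 to -0.32). Over all 28 animals 5 of the 10 marker correlations passed by Pearson's r and 7 by Spearman's rho. Without the 5 libraries Ccr2 with S100a8 alone passed by either: r was 0.39 for Clec4f with Ptprc, 0.18 for Ccr2 with Ptprc, 0.27 for S100a8 with Ptprc and 0.33 for Cd79a with Ptprc. Clec4f with S100a8 passed over all but the 2 farthest animals (r = 0.53).

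Single members changed sign in HZ against WT livers. Under WY without the 5 these were Marco -0.11, Cd68 -0.10, Lyz2 -0.0093, Aif1 -0.067, Fcer1g -0.064, Itgb2 -0.083, Cd53 -0.029 and Coro1a -0.057, and Lcp1 was -0.0082 with the length trend removed. Under vehicle without the 5 they were Clec4f -0.026, Marco -0.15, Mpeg1 -0.15, Spi1 -0.10, Aif1 -0.072, Ctss -0.027, Tyrobp -0.11, Laptm5 -0.060, Cybb -0.015, Cyba -0.20, Cd52 -0.051 and Cd79b -0.44. With limma voom Lcp1 was -0.030 and Cd79b -0.19. Under vehicle, leaving out 1 library gave ranges that crossed 0 for Clec4f (-0.0026 to 0.12), Cyba (-0.07 to 0.12), Lcp1 (-0.012 to 0.075) and Cd79b (-0.12 to 0.73), with values below 0 for Cyba, Lcp1 and Cd79b without HZ vehicle animal 38, for Cyba also without HZ vehicle animal 30 or WT vehicle animal 29, and for Clec4f without HZ vehicle animal 35.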
